A study of Mus musculus with 208 samples.

Results

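The microRNAs described here are the Mir200 family (Mir200a, Mir200b, Mir200c, Mir141 and Mir429), Mir375, and the Mir183 cluster (Mir183, Mir96 and Mir182). The 9 members were taken by name from the 1626 microRNA features of the count table, and all 9 were present. Their level, their detection and their correlation between libraries of the same group were measured, because these microRNAs are abundant in tissues that lie outside the dissected striatum.

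The libraries came from an allelic series of knock-in mice, a standard model of the repeat expansion that causes Huntington disease. Small RNA of the striatum was sequenced from single C57BL/6 mice in 26 groups of 8 libraries. Heterozygotes were taken at 2, 6 and 10 months from Q20 mice and from 5 lines with longer repeats (Q80, Q92, Q111, Q140 and Q175). In all of them the mouse Htt gene was intact on 1 chromosome, and the other copy bore exon 1 of human HTT with its CAG tract, so a heterozygote never lacked the normal allele. Wild-type (WT) mice at 2 and 10 months were littermates of the Q20 line only, and at 6 months WT littermates of every line were included, so a comparison of Q175 with WT at 2 or 10 months was also a comparison of 2 breeding lines. In line comparisons the Q20 mice and the WT littermates of the Q20 line served together as controls at every age, as in the study. The slopes on CAG length described below used the same mice. So both also compared breeding lines at 6 months, apart from the tests against own littermates. Groups held females and males (libraries are called F and M with their replicate number), and the lane and tag of each library, taken here as its batch, differed between the ages, so that age and batch cannot be told apart.

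Total counts per library ran from 2755347 to 7965446, with a median of 4615866. The neuronal microRNAs (Mir124, Mir9, Mir128, Mir132 and Mir138 genes, 10 features) summed to 64325 CPM (counts scaled to library size, here the TMM-normalised one) or more in every library. For 4 libraries the connectivity with the other libraries of their age fell below the study's cut-off, namely Q80 2 months M5, Q80 6 months F3, WT of Q80 6 months M2 and WT 10 months M2. They were left out of the tests and kept in the levels and correlations.

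The Mir200 family is known from epithelial and olfactory tissue, where it represses the transcription factors Zeb1 and Zeb2 and so keeps cells in the epithelial state. Mir375 is abundant in pancreatic islets and the pituitary, and takes part in hormone secretion. The Mir183 cluster is known from sensory organs such as retina and inner ear, where it is needed for receptor cells to mature. A microRNA recognises its targets mainly through its seed, bases 2 to 8 from the 5′ end. The mature forms of 8 members are shown because they define which of these microRNAs can share targets, and which are alike enough for a sequencing read to match more than 1. The sequences are from RefSeq (GRCm38.p6), 5′ to 3′, and the capitals mark the seed. For Mir375 the hairpin is shown in lower case.
miR-200b-3p: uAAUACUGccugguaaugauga
miR-200c-3p: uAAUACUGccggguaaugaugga
miR-429-3p: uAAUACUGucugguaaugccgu
miR-200a-3p: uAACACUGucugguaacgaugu
miR-141-3p: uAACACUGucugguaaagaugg
miR-183-5p: uAUGGCACugguagaauucacu
miR-96-5p: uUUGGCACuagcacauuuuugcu
miR-182-5p: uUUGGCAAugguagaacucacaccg
Mir375 hairpin: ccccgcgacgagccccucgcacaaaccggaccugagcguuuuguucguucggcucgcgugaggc

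One seed was shared by 3 members (miR-200b-3p, miR-200c-3p and miR-429-3p) and another by 2 (miR-200a-3p and miR-141-3p), so that the shared seeds cut across the gene clusters. The members of the Mir183 cluster had 3 different seeds, none of them shared with the Mir200 family. Over the first 22 bases miR-200a-3p and miR-141-3p were identical at 20 positions, with the substitutions C17A and U22G (miR-200a-3p first, positions from the 5′ end), and miR-200b-3p and miR-200c-3p also matched at 20. Mir200a and Mir141 were the members with fractional values, in 51 libraries each, so part of their reads had been divided between features, and their counts are uncertain to that extent. Mir429 had a fractional value in 1 library.

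The members lie at 4 places in the genome (GRCm38, all on the minus strand). Mir200b (chr4:156055681-156055750), Mir200a (chr4:156054896-156054985) and Mir429 (chr4:156053905-156053987) lie 695 and 908 bp apart within introns of Ttll10, and Mir429 also overlaps an exon of the non-coding gene Gm13648. Mir200c (chr6:124718322-124718390) and Mir141 (chr6:124717914-124717985) are separated by 336 bp in an intron of Gm15884, and Mir141 overlaps an exon of Gm29008. Mir183 (chr6:30169668-30169737), Mir96 (chr6:30169446-30169551) and Mir182 (chr6:30165918-30165992) form an intergenic cluster on the same chromosome, 94548176 bp from Mir141. Mir375 (chr1:74900658-74900721) is intergenic.

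All members were low to moderate in abundance, and their counts set how precisely each could be measured. Mir182 was the most abundant, with 278 counts in the lowest library, a median of 896.5 and 11028 in the highest. Mir375 had 74, 364 and 4619 counts, and Mir183 had 23, 95 and 1056. The 3 chromosome 4 members were lower. Mir429 had 10, 51 and 859 counts, Mir200b had 8, 30 and 431, Mir200a had 4, 23 and 511, and Mir141 had 2, 22 and 361. Mir200c and Mir96 were close to the limit of detection. Mir200c had a median of 3 counts, was at 0 in 16 libraries and reached 10 counts in 34, and Mir96 had a median of 3, was at 0 in 14 and reached 10 counts in 19. All 9 members passed the filter on low counts and were among the 477 features tested, Mir200c and Mir96 through a minority of libraries with high values.

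Per length, on the FPKM scale (counts scaled by feature length and library total), Mir182 was the highest member at 6 and 10 months. Its median FPKM was 1092 at 2 months, 2466 at 6 months and 5423 at 10 months, which placed it at rank 199, 154 and 132 of 1626 features. Mir375 had medians of 1049, 1168 and 693 FPKM. The order below these was Mir183 (165, 254 and 631 FPKM), Mir429 (95.4, 118 and 302), Mir200b (67.2, 84.6 and 175), Mir200a (36.1, 46.2 and 151), Mir141 (26.2, 55.4 and 166), Mir200c (7.64, 9.74 and 21.7) and Mir96 (4.42, 6.58 and 9.09). Neighbours in this order overlapped widely between libraries, and Mir141 and Mir200a exchanged places between ages. The 3 products of the Mir183 cluster were unequal, with Mir182 6.41 to 9.80 times Mir183 in the median library of each age and at least 242 times Mir96. Mir200 family and Mir183 cluster medians were higher at 6 than at 2 months and higher at 10 than at 6 months, while Mir375 was lowest at 10 months, and these differences between ages cannot be told apart from differences between batches.

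**Figure D1:**
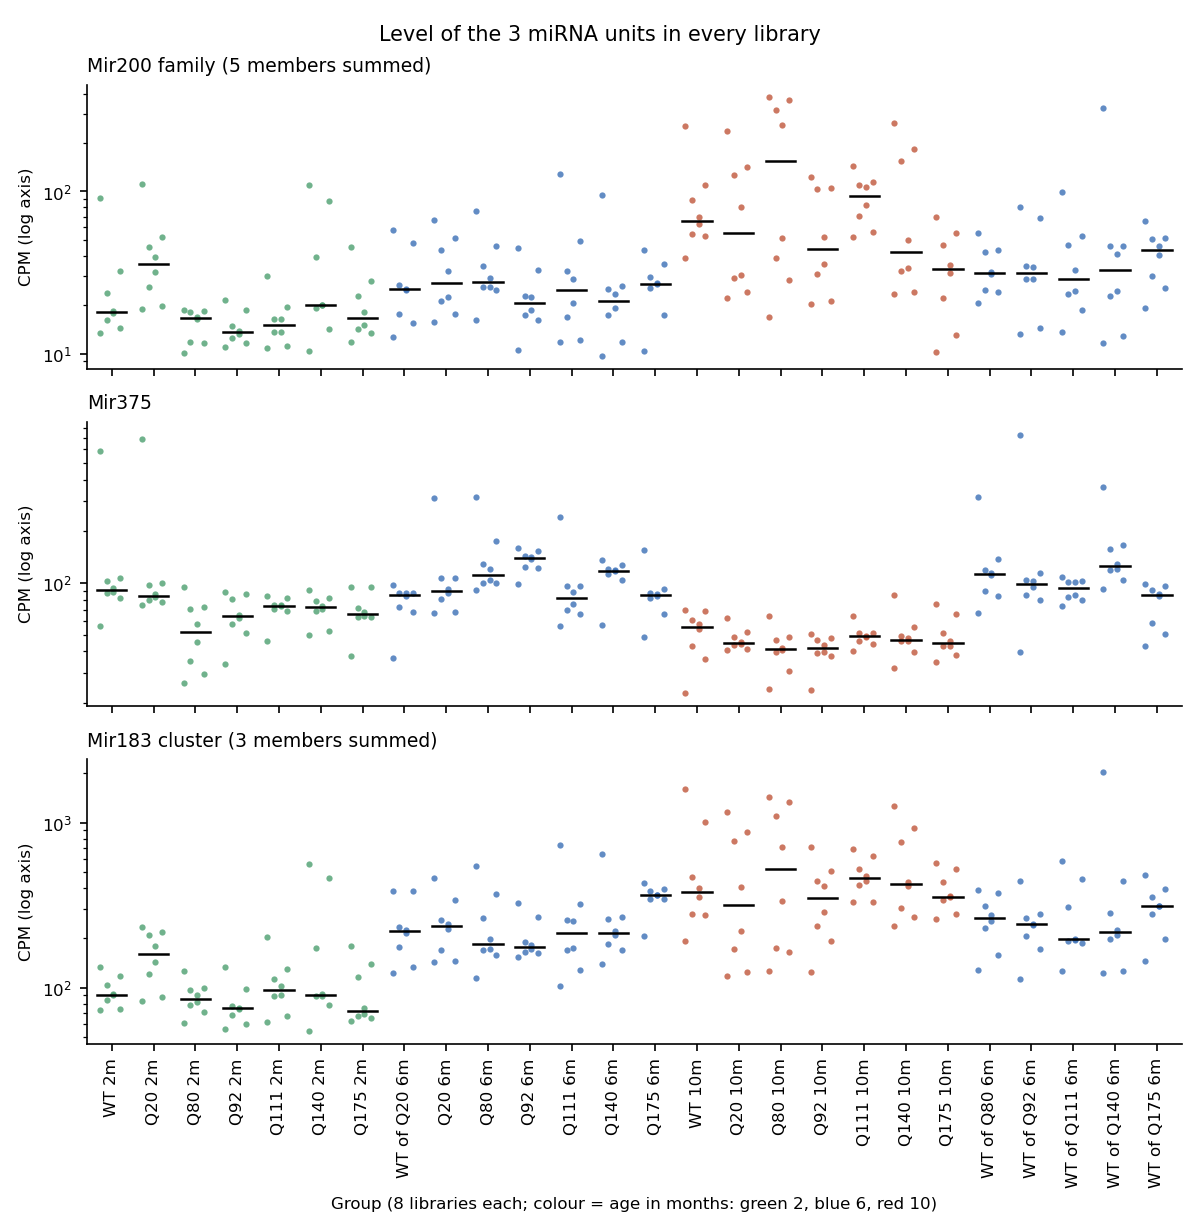
Summed CPM of the Mir200 family, Mir375 and the Mir183 cluster in each library (points) by group, on a log axis, with bars at the group medians. Single libraries reach up to 10.0 times their group median for the Mir200 family and 8.15 times for Mir375. High libraries for the Mir200 family occur in WT groups as well as in lines with long CAG repeats.

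Within groups the members varied far more than most microRNAs. At 2 months the standard deviation (SD) of log2 CPM around the group means lay between 0.638 (Mir200b) and 1.003 (Mir141), against a median of 0.244 over the 477 tested features. At 6 months Mir141 (SD 1.086) ranked 25 from the largest, and at 10 months Mir200a (SD 1.257) ranked 17. Mir375 differed, since its SD dropped from 0.666 at 2 months and 0.569 at 6 months to 0.37 at 10 months. For example, Mir429 at 10 months ran from 3.89 to 150 CPM over libraries, whereas Mir375 ran from 22.7 to 85.3 CPM.

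The Mir200 family and the Mir183 cluster varied together across mice of the same group, although they lie on 2 chromosomes and at 3 separate places. For each pair of members the correlation of the log2 CPM deviations from the group medians was computed over all libraries, with a permutation of libraries within groups (100000 permutations, two-sided, smallest possible p 1e-05) and adjustment over the 36 pairs. In the 28 pairs without Mir375, Pearson's r lay between 0.59 and 0.947 (median 0.8005) and Spearman's rho between 0.507 and 0.918, with adjusted permutation p of at most 1.29e-05. The 2 libraries where 1 member of a pair lay farthest from its median log2 CPM over all libraries were then left out. They were picked by level and not by deviation from the group median. Without them r was 0.575 to 0.941. The highest r was that of Mir183 and Mir182. Pairs from different clusters were correlated at r 0.59 to 0.862 (21 pairs), against 0.674 to 0.947 for pairs within 1 cluster (7 pairs), and the lowest values belonged to pairs with the sparsely counted Mir96 or Mir200c. The value of 0.862 belonged to Mir200a and Mir141, the members with fractional counts in 51 libraries each. The part of divided reads in it was not tested. Between the 5 Mir200 members and the 3 members of the Mir183 cluster, which share no seed, r was 0.59 to 0.86.

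Mir375 did not share this pattern. In its 8 pairs r lay between 0.014 and 0.309 and rho between -0.075 and 0.078. By r, 2 of the 8 pairs passed the permutation test, with Mir141 (r = 0.309, adjusted permutation p = 0.000521) and Mir200c (r = 0.2, adjusted permutation p = 0.019), but by rho neither did (rho = 0.06 and 0.00318, adjusted permutation p = 0.471 and 0.966). Leaving out the 2 libraries farthest by Mir141 level gave r = 0.31, and by Mir200c level r = 0.129. These libraries were not picked by Mir375, so the values cannot show how far libraries high for Mir375 carry r.

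**Figure D2:**
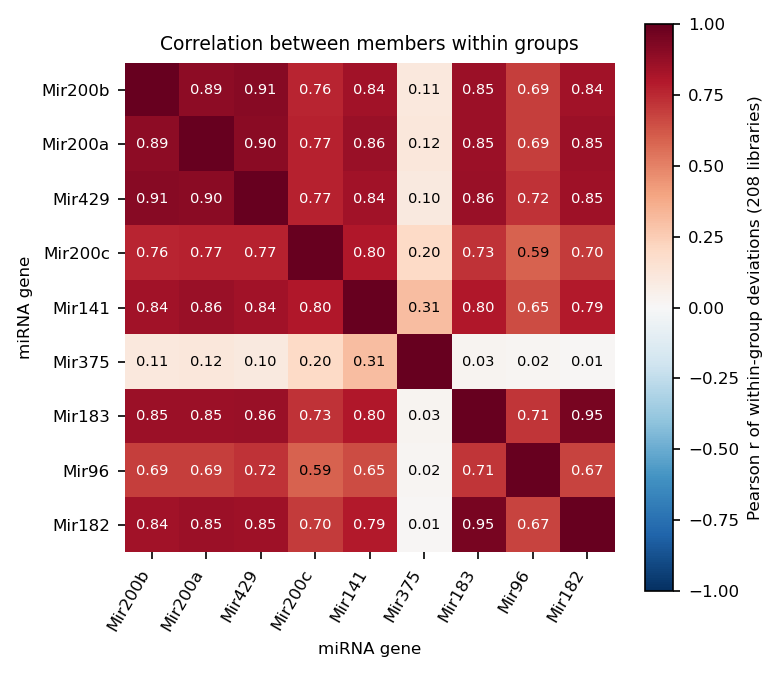
Pearson correlation r between the 9 members over all libraries, computed on log2 CPM deviations from the group medians, with the value in each cell. The 28 pairs without Mir375 range from 0.59 to 0.947, and the row of Mir375 from 0.014 to 0.309.

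The joint variation of the Mir200 family and the Mir183 cluster was found in nearly every group and batch. For the summed counts, r was 0.872 (rho 0.84) over all libraries, and 0.787, 0.886 and 0.898 at 2, 6 and 10 months. It was 0.868 without the 2 libraries farthest from the median by Mir200 family level. Within single groups of 8, r ran from 0.116 to 0.99 with a median of 0.92, above 0 in 26 of 26 groups and above 0.5 in 24. Within the batches large enough to compute it, r was 0.822 in 1 batch at 2 months, 0.923 and 0.709 at 6 months, and 0.85 and 0.955 at 10 months. The corresponding r between the Mir200 family and Mir375 was 0.191 (rho 0.068), ranged from -0.595 to 0.832 over groups, and was -0.027, 0.13, 0.355, 0.488 and 0.117 within those batches. Between the Mir183 cluster and Mir375 r was 0.017 (rho -0.065). Sequencing depth did not move with the first pair (r with log2 total count 0.065 for the Mir200 family and -0.007 for the Mir183 cluster) and moved weakly with Mir375 (r = 0.265).

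**Figure D3:**
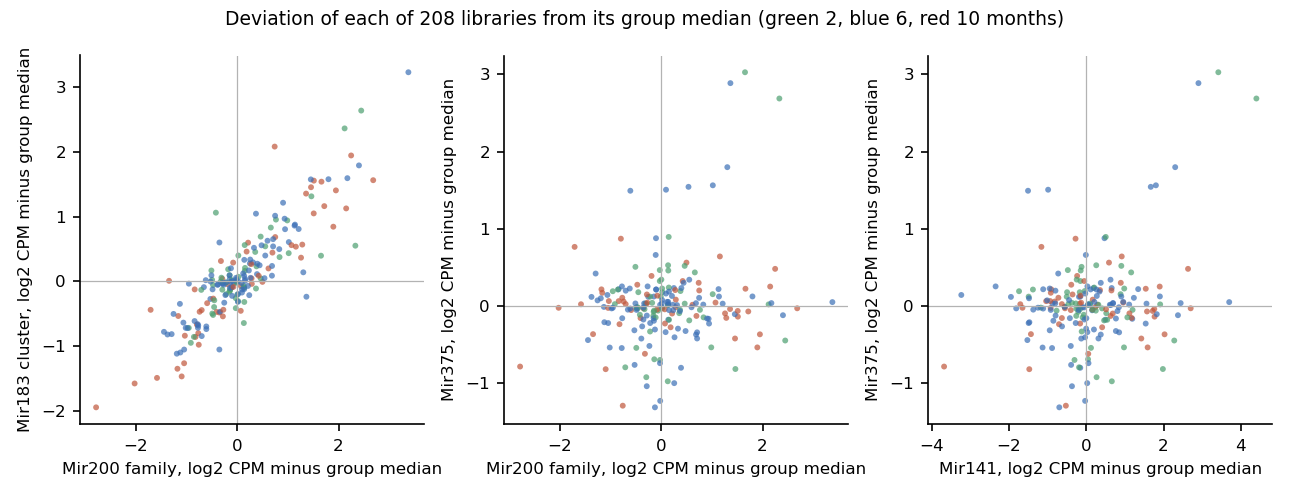
Log2 CPM minus the group median in each library, for the Mir200 family against the Mir183 cluster (left), the Mir200 family against Mir375 (middle) and Mir141 against Mir375 (right). The left panel follows a line (r = 0.872), whereas in the right panel a few libraries with high Mir375 also stand high for Mir141 (r = 0.309).

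The libraries that stood apart differed in which members were high. A unit above 3 times its group median was found in 13 libraries for the Mir200 family (4, 4 and 5 at 2, 6 and 10 months, in 10 groups), in 7 for the Mir183 cluster and in 4 for Mir375. The Mir200 family and the Mir183 cluster shared 6 of these libraries, the Mir200 family and Mir375 shared 2, and the Mir183 cluster and Mir375 shared 0. Others passed the cut for 1 unit alone. For example, Q140 10 months M2 stood at 3.65 times for the Mir200 family and 1.79 times for the Mir183 cluster. WT 10 months M2, a library left out of the tests, stood at 4.22 times for the Mir183 cluster and 1.67 times for the Mir200 family. Since the libraries were picked by these values, the following is a description. In the 6 libraries high for both families (WT of Q140 6 months M4, Q111 6 months F4, Q140 2 months F2 and M4, Q140 6 months F2, and Q20 10 months M3), 6 of 1626 features stood at 2 times the group median or more in all of them (with 1 CPM added to each value), and all 6 were members: Mir429, Mir183, Mir200a, Mir200b, Mir141 and Mir182. Mir375 in the same libraries stood at 0.737 to 1.387 times the median, and the highest non-member, in the least affected library, was Mir743b at 1.058 times.

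The 4 libraries high for Mir375 were Q20 2 months F1, WT 2 months M3, WT of Q92 6 months M4 and Q20 6 months M4, all of them WT or Q20 mice. This depends on the cut at 3 times, since Q111 6 months F1 stood just below it, at 2.94 times its group median. In the 4 libraries above the cut, 3 of 1626 features stood at 2 times the median or more throughout. They were Mir141 (4.25 to 14.3 times), Mir375 (3.45 to 8.06 times) and Mir200c (3.02 to 6.76 times), the chromosome 6 pair of the Mir200 family and Mir375. Mir375 reached 687, 585, 730 and 312 CPM in them and Mir141 51, 41.3, 38.8 and 23.5 CPM. The chromosome 4 members stood above the median in all of them as well, Mir429 at 1.395 to 2.04 times, Mir200b at 1.21 to 2.22 times and Mir200a at 1.205 to 3.29 times. Mir183 and Mir182 stood at 0.895 to 1.44 and 0.855 to 1.46 times the median. So high levels of Mir141 and Mir200c occurred with the Mir183 cluster in some mice and with Mir375 in others. In bulk tissue a change in the number of cells of a type and a change in RNA per cell cannot be told apart.

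Few other microRNAs followed either pattern. Of the 468 tested features that are no member, 0 had r above 0.5 with the Mir200 family, and the nearest were Mir216a (r = 0.232), Mir494 (r = 0.185) and Mir217 (r = 0.181), with adjusted permutation p = 0.695 for each. For the Mir183 cluster the nearest were Mir216a (r = 0.18), Mir1231 (r = 0.166) and Mir217 (r = 0.136), with adjusted permutation p = 0.967 for each. For Mir375 the nearest were Mir34c (r = 0.52, rho = 0.651, adjusted permutation p = 0.0468), Mir34b (r = 0.461, rho = 0.576, adjusted permutation p = 0.0468) and Mir1298 (r = 0.279, rho = 0.158, adjusted permutation p = 0.109). This search used fewer permutations than the member pairs. The unadjusted permutation p of Mir34c and Mir34b, 0.0002 for each, was the smallest it could give. Mir34b and Mir34c, known from ciliated epithelium, had r = 0.576 and 0.612 with Mir375 within groups and batches. Without the 2 libraries farthest from the median by Mir375 level, r was 0.57 and 0.608. Mir449a and Mir449c, from the same marker list below, had r = -0.144 and -0.029 with Mir375.

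Marker microRNAs of other tissues were compared with the members in the same way. The epithelial list (Mir192, Mir31, Mir194-1, Mir203 and Mir194-2 in order of level, with Mir215 and Mir205) held 7 features of 7 tested, summed to 1076 to 2321 CPM, and had r of -0.025 with the Mir200 family, 0.081 with the Mir183 cluster and 0.039 with Mir375. Its skin and squamous marker Mir205 had a median of 0.856 CPM and was at 0 in 12 libraries. The summed markers of blood, muscle, vessel, hypothalamus and pituitary, the Hox clusters, neurons and oligodendrocytes, and the list within Htr2c, had r between -0.096 and 0.129 with the Mir200 family and between -0.055 and 0.112 with the Mir183 cluster.

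The choroid plexus and ciliated cell list (7 features, 6 tested; Mir204, Mir34c, Mir34b, Mir449a and Mir449c in order of level) summed to 2734 CPM in the lowest library, 3802 in the median and 29365 in the highest. The highest sums were found in 1 library each of Q80 (29365 CPM) and WT of Q80 (24705 CPM) at 6 months, where the group medians were 3980 and 4276 CPM. Its r was -0.066 with the Mir200 family and -0.071 with the Mir183 cluster, but 0.321 with Mir375 (rho = 0.323, adjusted permutation p = 0.0006 for r over 30 list and member pairs). Without the 2 libraries where the list lay farthest from its group medians, r with Mir375 was 0.197. The named features of the list were not alike in r with Mir375. It was 0.52 for Mir34c, 0.461 for Mir34b, 0.248 for Mir204 (rho = 0.057), -0.029 for Mir449c and -0.144 for Mir449a. Mir375 was also correlated with the list within Htr2c (r = 0.272, adjusted permutation p = 0.0089, and r = 0.091 without the 2 farthest libraries), with blood (r = 0.228, adjusted permutation p = 0.0313) and negatively with the neuronal list (r = -0.228, adjusted permutation p = 0.0075). By the slope on CAG length described next, the epithelial list had 1 of 7 rising and 0 falling at 6 months and the same counts at 10 months, and the choroid plexus and ciliated cell list had 1 of 6 rising and 1 falling at 6 months and 0 of 6 at 10 months. The list within Htr2c had 3 of 5 rising and 0 falling at both ages, the neuronal list had 0 of 10 rising with 5 falling at 6 months and 3 at 10 months, and the blood list had 0 of 4 in either direction. Of all tested features 30.2 percent were called at 6 months and 24.1 percent at 10 months, in both directions together. The part of these markers in the levels of Mir375 was not tested.

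The question the series was made for is how microRNA levels depend on the CAG length, and by that test no member was called at any age. The slope of log2 level on CAG length was fitted within each age with edgeR's quasi-likelihood test, with sex and batch as covariates and Benjamini-Hochberg adjustment over the 477 features. At 2 months 0 of 9 members and 0 percent of all tested features were called. At 6 months 0 of 9 members were called against a background of 30.2 percent of all features, at 10 months 0 of 9 against 24.1 percent, and in the combination of the 6 and 10 month statistics 0 of 9 against 37.9 percent. At an unadjusted p under 0.05 there was 1 member at 2 months (Mir375), 0 at 6 months, 0 at 10 months and 0 in the combination, and DESeq2 called 0 in each as well. Of all 477 features 36, 192, 156 and 211 had an unadjusted p under 0.05 in these 4 tests.

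Of the slopes, per 100 CAG and on the log2 scale, Mir375 at 2 months had the smallest p, at -0.66 ± 0.20 (SE; edgeR adjusted p = 0.244). Part of this value rested on 1 library, since without Q20 2 months F1 the slope was -0.39 ± 0.16 (edgeR adjusted p = 0.54). The group medians of Mir375 at 2 months were also lower in the 5 lines with longer repeats. They ran from 51.5 CPM in Q80 to 73.8 CPM in Q111, against 84.3 CPM in Q20 and 90.96 CPM in WT, and single libraries overlapped. At 6 months the members with the smallest p were those of the Mir183 cluster, but not in 1 direction: Mir182 was at 0.27 ± 0.15 (edgeR adjusted p = 0.173), Mir96 at -0.31 ± 0.26 (edgeR adjusted p = 0.424) and Mir183 at 0.18 ± 0.16 (edgeR adjusted p = 0.444), while the 5 Mir200 members ran from -0.16 to -0.05. At 10 months the Mir200 members ran from -0.60 (Mir200c, SE 0.36, edgeR adjusted p = 0.248) to -0.29 (Mir200a), and Mir182 was at 0.14 ± 0.26. The standard errors at 10 months were up to 0.39 for Mir429 against 0.09 for Mir375, beside the wide spread of the Mir200 members between libraries at that age.

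Because the Mir200 family and the Mir183 cluster varied together, the fit was repeated with the log2 level of the chromosome 4 members (summed counts of Mir200b, Mir200a and Mir429) as a covariate. This fit was chosen after the joint variation had been seen. At a given level of the chromosome 4 members, Mir182 and Mir183 rose with CAG length at 6 and 10 months. At 6 months the slope was 0.41 ± 0.08 per 100 CAG for Mir182 (edgeR adjusted p = 2.46e-05) and 0.34 ± 0.09 for Mir183 (edgeR adjusted p = 0.00207), with 2 of the 6 members outside the covariate called against a background of 30.8 percent. At 10 months it was 0.54 ± 0.10 for Mir182 (edgeR adjusted p = 4.3e-05) and 0.41 ± 0.10 for Mir183 (edgeR adjusted p = 0.000909), with 2 of 6 called against 23.5 percent. In the combination of both ages the 2 were called as well (Z = 6.61 and 5.27, edgeR adjusted p = 4.35e-10 and 1.08e-06, background 38.4 percent). At 2 months the slopes were 0.15 ± 0.09 and 0.13 ± 0.10 and were not called (0 of 6, background 0 percent). Mir96 of the same cluster was at -0.13 and 0.38 at 6 and 10 months, without a call. Both calls were kept in all 94 fits at 6 months and all 55 fits at 10 months that left out 1 library. The slopes were 0.379 to 0.459 and 0.489 to 0.616 for Mir182, and 0.292 to 0.383 and 0.364 to 0.484 for Mir183. Some of the 94 fits left out a WT littermate of a line other than Q20. Such mice were not in this model, so those fits could not change the calls.

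The covariate makes this a statement on the balance between the families. In the reverse fit, with the level of Mir183 and Mir182 as the covariate, the Mir200 members fell with CAG length (background 30.6 percent at 6 months and 24.1 percent at 10 months). At 10 months the slope was -0.68 for Mir429 (edgeR adjusted p = 0.000319), -0.57 for Mir141 (edgeR adjusted p = 0.000348) and -0.81 for Mir200c (edgeR adjusted p = 0.00122), and the slopes of Mir200b and Mir200a, at -0.61 and -0.53, were called as well. At 6 months Mir200b, Mir200a, Mir429 and Mir141 were called at -0.41, -0.37, -0.44 and -0.47, and Mir200c at -0.47 was not (edgeR adjusted p = 0.14). Mir96 also fell in this fit at 6 months, with a slope of -0.56 (edgeR adjusted p = 0.0402) relative to the other products of its own cluster. Whether the Mir183 cluster went up or the Mir200 family went down cannot be told apart from the covariate fits. With the chromosome 6 pair Mir200c and Mir141 as the covariate in place of the chromosome 4 members, Mir182 had a slope of 0.30 at 6 months (edgeR adjusted p = 0.00446) and 0.53 at 10 months (edgeR adjusted p = 3.09e-06), and Mir183 of 0.24 (edgeR adjusted p = 0.0437) and 0.41 (edgeR adjusted p = 0.00017), with backgrounds of 31.4 and 23.7 percent.

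**Figure D4:**
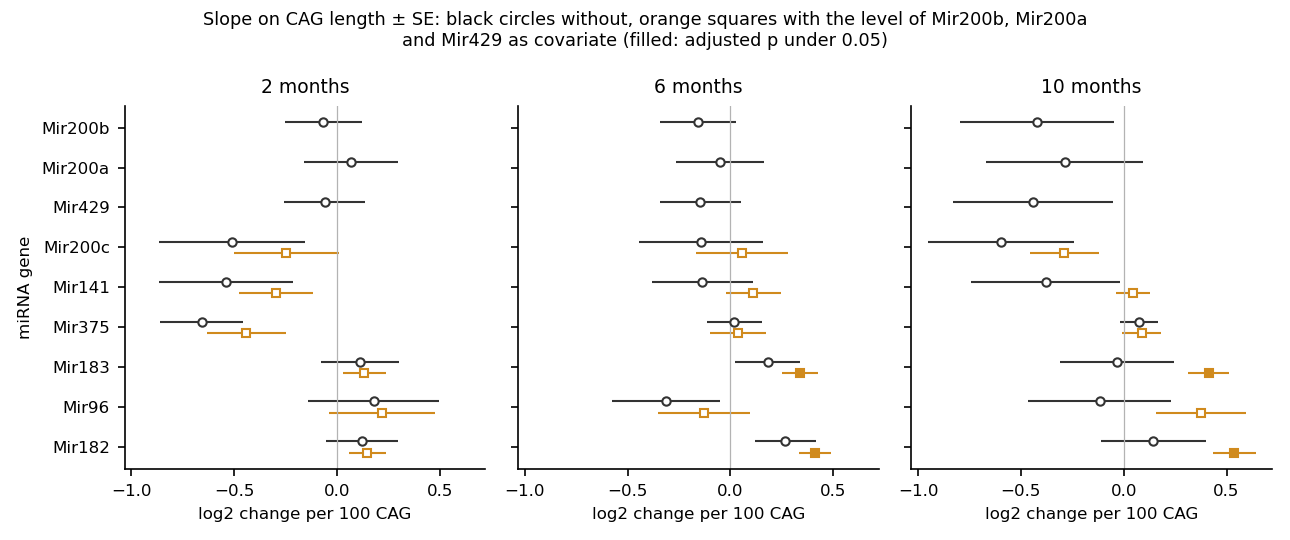
Slope of log2 level per 100 CAG with its standard error for each member at 2, 6 and 10 months, without (black circles) and with (orange squares) the level of the chromosome 4 members as a covariate, filled where the edgeR adjusted p was under 0.05. No slope is called without the covariate, and with it those of Mir182 and Mir183 are called at 6 and 10 months.

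The ratio of the Mir183 and Mir182 counts to the Mir200b, Mir200a and Mir429 counts describes single libraries. It is made from the same counts as the covariate fit and is no separate test. At 6 months the lowest, median and highest ratios in Q175 were 12, 18.7 and 23.7, against 7.15, 9.46 and 12.5 in its own WT littermates. Of the 8 Q175 libraries the lowest alone fell inside the range of the littermates. In Q140 the ratios were 8.64, 13.9 and 23.9, against 7.14, 9.82 and 13.7 in its littermates, with more overlap. The medians of the 6 WT groups lay between 8.87 and 10.15, and those of Q20, Q80, Q92 and Q111 between 9.07 and 10.3. At 10 months the ratios were 9.21, 14.5 and 36.2 in Q175, 6.00, 10.9 and 16.9 in Q140, 6.28, 7.01 and 9.11 in Q20, and 4.97, 6.47 and 18.8 in WT, where the highest was the library left out of the tests (12.1 without it). At 2 months all group medians lay between 5.43 and 7.17, and 1 library, Q111 F4, reached 20.4.

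Which side of the ratio differed at 6 months depended on the group that Q175 was set against. Mir183 and Mir182 together were at a median of 364 CPM in Q175, 313 CPM in its own littermates, 219 CPM in WT of Q20 and 234 CPM in Q20. The chromosome 4 members were at a median of 20.0 CPM in Q175, 35.3 CPM in its littermates (the highest group median at 6 months), 19.9 CPM in WT of Q20 and 22.1 CPM in Q20. At 10 months the chromosome 4 members were at 26 CPM in Q175, 50.3 in WT and 44.5 in Q20, with wide overlap between groups (7.22 to 56.6 CPM in Q175 and 17.3 to 180 in Q20). Within batches the median ratio of the Q140 and Q175 libraries was 14.5 (n = 13) against 9.59 (n = 42) in WT and Q20 libraries in the larger batch at 6 months, and 17.9 (n = 3) against 9.48 (n = 13) in the smaller one. At 10 months it was 16.4 (n = 7) against 7.21 (n = 3) and 10.6 (n = 8) against 6.37 (n = 5) in 2 batches, and another held none of the Q140 or Q175 libraries.

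**Figure D5:**
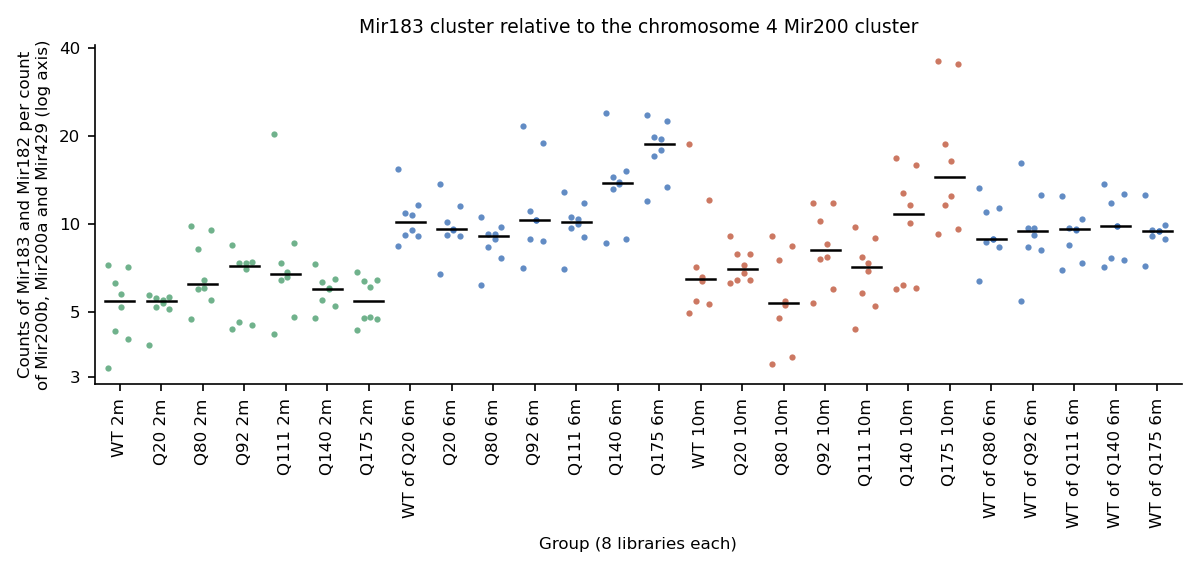
Counts of Mir183 and Mir182 per count of Mir200b, Mir200a and Mir429 in each library (points) by group, on a log axis, with bars at the group medians. At 6 months the Q175 median is 18.7 and those of the 6 WT groups are 8.87 to 10.15, and at 2 months all group medians are between 5.43 and 7.17.

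Among the single lines, with the covariate, Q175 at 6 months differed from the controls by 0.83 ± 0.12 in log2 level for Mir182 (edgeR adjusted p = 7.87e-08, background 35.2 percent) and by 0.66 ± 0.14 for Mir183 (edgeR adjusted p = 0.000179). Against its own WT littermates the differences were 0.84 (edgeR adjusted p = 3.04e-06, background 26.8 percent) and 0.60 (edgeR adjusted p = 0.00317). At 10 months they were 1.05 (edgeR adjusted p = 3.08e-06, background 18.4 percent) and 0.81 (edgeR adjusted p = 0.00016). In Q140, Mir182 was called at 10 months (0.53, edgeR adjusted p = 0.0156, background 17.2 percent) and Mir183 against own littermates at 6 months (0.59, edgeR adjusted p = 0.00799, background 15.7 percent). Mir183 at 10 months (edgeR adjusted p = 0.06) and Mir182 against own littermates (edgeR adjusted p = 0.246) were not called in Q140. Against controls at 6 months neither was called there (edgeR adjusted p = 0.139 for Mir182 and 0.173 for Mir183, background 30.6 percent). In Q80, Q92 and Q111 neither was called at 6 months, where 10.7, 9.01 and 8.81 percent of features were, or at 10 months, where 0, 0.629 and 14.7 percent were. At 2 months Mir182 was called in Q111 (0.52, edgeR adjusted p = 0.0466, background 3.77 percent), the group with the library at a ratio of 20.4.

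Without the covariate, 1 of 45 tests of a member in a line passed at 6 months and 1 of 45 at 10 months, and these calls rested on low counts. With no member called, 10.7 (Q80), 9.01 (Q111), 30 (Q140) and 36.5 percent (Q175) of features were called at 6 months, and 0 (Q80), 0.629 (Q92), 15.5 (Q111) and 17 percent (Q140) at 10 months. Mir200c was lower in Q175 than in controls at 10 months, with a difference of -1.67 ± 0.60 in log2 level (edgeR adjusted p = 0.0399, background 20.8 percent). The Q175 libraries had 1 to 6 counts of Mir200c, or 0.185, 0.665 and 1.48 CPM (lowest, median and highest), against 0.922, 2.19 and 6.49 CPM in WT and 0.378, 1.93 and 5.95 CPM in Q20, so the groups overlapped. The call was lost when any of 9 of the 55 libraries was left out (edgeR adjusted p of 0.115 at most, without WT 10 months M4), and with the chromosome 4 members as covariate the difference was -0.55 (edgeR adjusted p = 0.29).

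Mir96 was lower in Q92 than in controls at 6 months, with a difference of -1.69 ± 0.53 (edgeR adjusted p = 0.032, background 10.1 percent). The lowest, median and highest counts were 0, 1.5 and 4 in Q92, 3, 4 and 10 in WT of Q20, and 0, 4 and 9 in Q20. The call was lost in 7 of 94 fits that left out 1 library (highest edgeR adjusted p = 0.0857, without Q92 6 months M2). Here too, the fits without a WT littermate of a line other than Q20 could not change a call. Mir182 in Q175 at 6 months was at 187, 340 and 396 CPM, against 115, 199 and 339 CPM in WT of Q20 and 133, 214 and 422 CPM in Q20. The difference of 0.64 ± 0.27 missed the threshold (edgeR adjusted p = 0.0532, background 36.5 percent) and passed it in 11 of the same 94 fits. Against the WT littermates of Q175, at a median of 283 CPM, the difference was 0.28 ± 0.38 (edgeR adjusted p = 0.685).

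Against own littermates at 6 months 0 members were called in Q80, Q92, Q111 and Q175 with edgeR (background 0.839, 0.629, 4.61 and 25.6 percent), and Mir200a was called in Q140 at -1.46 ± 0.48 (edgeR adjusted p = 0.0242, background 15.9 percent). Of the WT littermates, M4 stood at 65.4 CPM and the next highest at 9.89, and without M4 the difference was -0.26 ± 0.45 (edgeR adjusted p = 0.905). Over the 45 tests of a member against own littermates, 6 had an unadjusted p under 0.05, against 33 to 157 of all 477 features in the 5 comparisons, and DESeq2 called 2. At 10 months the Q80 group had the highest Mir200 family medians, with Mir429 at 65.4 CPM (8.0 to 150 CPM), but Mir200b, Mir200a, Mir429, Mir141 and Mir96, at 1.07 to 1.23 above the controls in log2 level, were not called (edgeR adjusted p = 0.969, background 0 percent). At 2 months 0 of 45 tests of a member in a line passed with edgeR, where 0 percent of features (Q80, Q92 and Q140), 0.21 percent (Q175) and 2.94 percent (Q111) were called, although 18 of the 45 had an unadjusted p under 0.05 and DESeq2 called 2. Of all 477 features 31 to 64 had an unadjusted p under 0.05 in these 5 comparisons. In those fits Mir375 was at -0.88 to -1.44 in the 5 lines against controls that held the 2 libraries at 687 and 585 CPM.

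Mir375 differed between the WT mice of the 6 lines at 6 months, where no expanded repeat was present (edgeR adjusted p = 0.00551, background 27.3 percent of features). It was the 1 member of 9 called. The group medians were 85.3 CPM in WT of Q20, 85.4 of Q175, 93.5 of Q111, 98.9 of Q92, 112 of Q80 and 125 of Q140, and neighbours in this order overlapped. The call was kept in 94 of 94 fits with 1 library left out, with edgeR adjusted p of 0.00149 to 0.0229.

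Neither Q20 nor sex moved a member past the threshold. Between Q20 and WT 0 of 9 members were called at each age with edgeR, and 0 percent of all features, with 4, 0 and 0 members, and 27, 19 and 31 of all features, at an unadjusted p under 0.05 at 2, 6 and 10 months. Between females and males 0 of 9 were called at 2, 6 and 10 months, against 0.419, 1.05 and 0.419 percent of all features, with 0, 1 and 1 members, and 49, 57 and 34 of all features, at an unadjusted p under 0.05. DESeq2 called 0 members in each of these comparisons.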

How the data were processed

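Small RNA libraries of the striatum were made by the study (miRNeasy extraction, HiSeq2000, clipped reads aligned to mm10 with STAR and counted with HTSeq). The authors deposited expected counts per microRNA feature, of which 1027 of 1626 features hold fractions, and an FPKM table that equals the counts divided by a fixed length per feature and the library total (largest relative deviation 4.14e-06). The step that divided reads is not given in the sources used here. CASAVA 1.8.2 is named in the submitters' processing notes. For Mir375 the FPKM table implies a length of 75 against 64 in the reference annotation, so its FPKM would be higher per reference length. Of the columns of the tables, 0 belonged to no sample.

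Counts were rounded and tested with edgeR 4.0.16 (R 4.3.3, TMM, filterByExpr with a minimum count of 10, robust quasi-likelihood F-tests, Benjamini-Hochberg over 477 features, threshold 0.05), with sex and batch as covariates, WT at a CAG length of 7, and 4 libraries with a standardised connectivity below -5 left out. Z statistics at 6 and 10 months were combined as in the study. DESeq2 1.42.0 (the study's tool) was an alternative, as were other scalings, filters, controls, covariates and leaving out each library. CPM used TMM library sizes, and correlations log2 CPM with a prior count of 2. The fits were tested on simulated data. Total counts of 2755347 to 7965446 per library set the counting error. Where the labels name single mice as replicates, p-values cover the spread between mice. Replicate numbers did not pair the libraries. The labelled sex was at odds with the cage code in 2 libraries. All 9 members are named, and for each of 3 patterns the 3 other features with the highest r, and lists by count with at most 5 genes in order of level. The members, lists and rules were chosen with earlier results of these data known, and the covariate fits after seeing the joint variation. Genes were matched by symbol to GENCODE M21 (1228 of 1626 features) and RefSeq.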

Additional observations from a re-analysis of the deposited data

Results flagged for a closer look

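Each of 234 sets of 8 libraries (a member in a group) was searched for a single highest or lowest library standing far from the others by Dixon's criterion, and 30 were found, 23 high and 7 low, in 17 libraries. Chance gives about 1 in 20, or 11.7 sets. Values are CPM.

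In WT of Q140 6 months M4 the flags covered both families, with Mir182 at 1840, Mir183 at 176, Mir96 at 6.68, Mir200a at 65.4, Mir200b at 71.9 and Mir429 at 126. In Q140 6 months F2 they covered Mir182 at 575, Mir183 at 67.6, Mir141 at 18.8, Mir200a at 17.4 and Mir200b at 21.8. Mir375 was within its group's range in both.

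Mir375 stood high in WT of Q92 6 months M4 (730), Q20 2 months F1 (687), WT 2 months M3 (585), WT of Q140 6 months F2 (363), WT of Q80 6 months M2 (316, a library left out of the tests), Q20 6 months M4 (312) and Q111 6 months F1 (241). In these, Mir141 was also flagged in Q20 2 months F1 (51) and WT 2 months M3 (41.3), and Mir200c in WT 2 months M3 (8.79) and Q20 6 months M4 (4.6). Mir375 stood low in Q140 6 months M4 (57.2), Q111 2 months M1 (45.8), Q175 2 months M3 (37.4), WT of Q20 6 months F4 (36.4) and Q92 10 months M4 (23.6). The other flags were Mir141 at 2.61 in Q92 2 months F3, Mir182 low at 187 in Q175 6 months M4, and Mir200b low at 2.99 in WT of Q175 6 months F1.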

How the results depend on the processing

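The correlation of the Mir200 family with the Mir183 cluster kept its direction and size under every alternative run. The count of members called for the slope on CAG length stayed at 0 at 6 and 10 months and in their combination under all alternatives but the fits with members as covariates, which were chosen after seeing the data (2 each with the chromosome 4 members, Mir182 and Mir183, and the calls given above with the other covariates), and at 2 months was 1 without the batch covariate (Mir375). Against controls at 2 months (0 with edgeR) the calls were 2 with DESeq2, 1 without the batch covariate and 1 with the covariate. At 6 months (1) they were 2 under total count scaling, RLE size factors, DESeq2, WT only as controls and without robust estimation, 3 with DESeq2 after replacing outlying counts and with the covariate, 0 without the low-count filter, and 0 to 2 leaving out 1 library. At 10 months (1) they were 0 without the filter and with a mean of 50 counts, 2 with either form of DESeq2, 3 with the covariate, and 0 to 1 leaving out 1 library. Against own littermates (1) they were 0 without the filter, after replacing outlying counts and with the replicate block, 2 with DESeq2 and without robust estimation, 3 with the covariate, and 0 to 6 leaving out 1 library. For Q20 against WT at 2 months (0) there were 4 without the filter. The cause of these changes was not tested.

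Some slopes that were not called changed sign. With WT only as controls these were, at 2 months, Mir200b (0.39), Mir429 (0.39), Mir200c (0.23) and Mir141 (0.25), at 6 months Mir200a (0.043), Mir200c (0.22) and Mir141 (0.075), and at 10 months Mir182 (-0.035). After replacing outlying counts they were Mir200c (0.052), Mir141 (0.18) and Mir183 (-0.060) at 2 months. Without the batch covariate Mir200a at 2 months was at -0.055, under total count scaling Mir200a at 6 months at 0.0033, and with all libraries kept Mir375 at 6 months at -0.0062 and Mir182 at 10 months at -0.105. With the covariate they were Mir200c (0.058) and Mir141 (0.11) at 6 months, and Mir141 (0.045), Mir183 (0.41) and Mir96 (0.38) at 10 months. Leaving out 1 library, the slopes that spanned 0 were Mir200b (-0.24 to 0.0365), Mir200a (-0.14 to 0.24), Mir429 (-0.27 to 0.0198), Mir183 (-0.078 to 0.21), Mir96 (-0.14 to 0.33) and Mir182 (-0.077 to 0.21) at 2 months, Mir200c (-0.21 to 0.13), Mir141 (-0.22 to 0.055) and Mir375 (-0.033 to 0.16) at 6 months, and Mir183 (-0.12 to 0.13) and Mir96 (-0.22 to 0.11) at 10 months. The pairing of libraries by replicate number was not borne out (median r of 0.02, 0.008 and 0.044 between libraries of the same number at 2, 6 and 10 months), and the replicate block moved no other count of calls than that against own littermates, from 1 to 0. Mir200c and Mir96, at a median of 3 counts, are limited by depth.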
